A study of Mus musculus with 9 samples.

Results

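The genes described are 10 regulators of the ATF4-CHOP stress response: Atf4, Ddit3, which encodes CHOP, Atf3, Atf5, Trib3, Chac1, Sesn2, Nupr1, Ddit4 and Ppp1r15a. They were taken by gene symbol from the 55471 genes listed for each culture. The symbols stood on 11 rows, because Ddit3 had a second entry that reached at most 1.06 estimated counts in any culture and was left out. All 10 genes passed the filter on low counts that left 15362 genes to be tested.

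RNA was sequenced from 9 cultures of primary articular chondrocytes, the cells that make and keep up joint cartilage, taken from the knee ends of femur and tibia of WT mice at postnatal day 5. The labels give 3 cultures called Control, 3 infected with Ad-OSCAR, an adenovirus that drives expression of the collagen receptor OSCAR, and 3 infected with Ad-OSCAR and then treated with 5-ASA (5-aminosalicylic acid). Cells were cultured for 3 days, infected for 2 h at 400 MOI (multiplicity of infection) and kept for 36 h before 5-ASA, as the labels state it. The methods of the study call the first group Ad-Control, cells infected with a control adenovirus, so Control is not an uninfected group there. They add a coating of a collagen peptide under all cells, and give another virus dose and other times. Nothing stated that the cultures came from separate animals, so the p-values measure the spread between these cultures.

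As background, ATF4 is a transcription factor of the integrated stress response. Kinases that sense a lack of amino acids, unfolded protein in the endoplasmic reticulum (ER), viral RNA or a lack of haem phosphorylate the translation factor eIF2-alpha. General translation then falls while ATF4 protein is made more efficiently, so the amount of Atf4 mRNA is not a measure of ATF4 protein. ATF4 and its partners switch on genes for amino acid uptake and synthesis and for tRNA charging, and with lasting stress also CHOP and TRIB3. Chondrocytes secrete large amounts of collagen, and ATF4 is known to take part in cartilage growth.

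Oscar had 3 to 4 estimated counts per culture in Control, against 173445 to 187278 after infection with Ad-OSCAR and 80766 to 94199 when 5-ASA was added. Its level was thus also lower with 5-ASA than without it (log2 fold change -0.97, SE 0.06, Benjamini-Hochberg adjusted p = 1.76e-08 by the quasi-likelihood test of edgeR). All 9 chondrocyte markers were detected, and their summed level was far lower in both groups given Ad-OSCAR than in Control. In CPM (library-scaled counts) it was 38114 to 43708 in Control, 3259 to 3593 in Ad-OSCAR and 3658 to 4048 in treated cultures. Of 7 leukocyte markers, 3 (Ptprc, Adgre1 and Cd3e) stayed at or under 3 counts in every culture, and the summed level of the list was 15.5 to 18.3, 35.4 to 36.2 and 29.3 to 30.6 CPM in these groups. Of the chondrocyte markers 8 fell with Ad-OSCAR, and Prg4 rose (log2 fold change 1.86, SE 0.04, edgeR adjusted p = 9.8e-17). In the same order of groups, 6 fibroblast or synovial markers summed to 13015 to 13872, 9650 to 10496 and 11716 to 12906 CPM, and 6 osteoblast or osteoclast markers to 51.9 to 58.3, 20.7 to 23.8 and 28.1 to 29.2. Muscle and adipocyte markers, of which Myod1, Myog and Adipoq stayed at or under 3 counts, summed to 11.4 to 15.4, 28.3 to 31.5 and 27.0 to 31.4 CPM, and 4 endothelial markers, of which Cdh5 did, to at most 1.04, 2.80 and 1.79. Total estimated counts were 19733448 to 28192740 per culture. The part of the Oscar level and of the marker levels in the results that follow was not tested. In RNA from whole cultures, fewer cells of a type and less RNA per cell cannot be told apart.

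Promoter sequences are shown for the regulators in which a known binding motif was found, because these motifs are how ATF4 and related factors address their targets. RefSeq windows of 300 bases, 250 before and 50 after the annotated start (GRCm38.p6), were held for all 10 genes, 11 windows in all. The core of the amino acid response element, TGATGNAA, which ATF4 binds with a C/EBP partner, was searched on both strands and lay in the windows of 4 regulators, Atf3, Trib3, Chac1 and Nupr1. It lay in 3.97% of all 32851 windows. The cyclic AMP response element TGACGTCA, in 1.79% of all windows, lay in the window of Ppp1r15a. The ER stress response element, CCAAT and CCACG with 9 bases between them, in 0.119% of all windows, was found in none. The 250 bases before the start are printed 5′ to 3′ on the strand of the gene, with the motif in capitals. For Trib3, where the match lay after the start, 30 bases around it are printed. The reverse complement of TGATGNAA reads TTNCATCA, which is the form all these matches take.
Atf3 (chr1:191183334-191183583, minus strand): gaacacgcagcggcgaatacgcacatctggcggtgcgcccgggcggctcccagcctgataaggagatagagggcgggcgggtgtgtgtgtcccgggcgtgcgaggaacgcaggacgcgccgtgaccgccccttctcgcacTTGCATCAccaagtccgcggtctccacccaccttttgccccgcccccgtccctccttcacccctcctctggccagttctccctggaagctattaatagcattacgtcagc
Chac1 (chr2:119350992-119351241, plus strand): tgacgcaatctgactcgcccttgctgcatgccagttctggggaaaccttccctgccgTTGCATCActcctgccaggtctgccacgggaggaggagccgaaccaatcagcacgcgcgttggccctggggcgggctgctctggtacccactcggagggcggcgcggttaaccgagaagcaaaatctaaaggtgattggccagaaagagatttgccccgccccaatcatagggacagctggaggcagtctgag
Nupr1 (chr7:126625471-126625720, minus strand): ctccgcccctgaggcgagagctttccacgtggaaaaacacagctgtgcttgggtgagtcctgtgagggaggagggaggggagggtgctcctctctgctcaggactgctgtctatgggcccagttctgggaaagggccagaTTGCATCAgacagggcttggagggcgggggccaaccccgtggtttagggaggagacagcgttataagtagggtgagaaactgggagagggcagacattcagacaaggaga
Trib3 (chr2:152344028-152344057, minus strand): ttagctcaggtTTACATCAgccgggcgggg
Ppp1r15a (chr7:45526269-45526518, minus strand): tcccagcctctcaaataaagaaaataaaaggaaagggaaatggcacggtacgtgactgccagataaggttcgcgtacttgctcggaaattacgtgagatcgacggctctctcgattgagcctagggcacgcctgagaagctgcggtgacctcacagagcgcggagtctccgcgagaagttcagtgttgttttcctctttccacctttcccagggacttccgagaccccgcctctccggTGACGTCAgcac

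The match began 110 bases before the start in Atf3, likewise 110 bases before it in Nupr1, 193 bases before it in Chac1 and at base 15 after it in Trib3. In Ppp1r15a the cyclic AMP response element began 12 bases before the start. In the GENCODE annotation Atf3 and Nupr1 extend beyond the bases printed, which thus lie inside those genes. The GENCODE start of Trib3, on the minus strand, is at 152344032, so the Trib3 match lies before that start. These matches are letters in a window, and binding was not tested. The 4 genes with the amino acid response core did not move as a group: with 5-ASA Trib3, Chac1 and Nupr1 rose and Atf3 fell.

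The levels of the regulators, which can be compared between genes as TPM, transcript levels scaled for gene length and library, ran from Atf4 at the top to Atf3 at the bottom in each group. In Control cultures Atf4 stood at 402 ± 9.38 TPM (mean ± SD, n = 3), followed by Nupr1 at 355 ± 7.10, Atf5 at 233 ± 10.3 and Ddit3 at 121 ± 1.05. Trib3 (82.1 ± 5.28) and Ddit4 (76.5 ± 4.09) overlapped between cultures, and Ppp1r15a (66.6 ± 4.60), Chac1 (45.3 ± 1.94), Sesn2 (38.5 ± 2.02) and Atf3 (5.88 ± 1.21) came below them without overlap. Atf4 was thus at the 97.9th percentile of all genes tested and Atf3 at the 34.7th.

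The order changed in the middle. With Ad-OSCAR, Trib3 (34.6 ± 3.34 TPM) moved from the fifth to the ninth place, where it overlapped Chac1 (35.3 ± 3.53). Nupr1 (181 ± 17.6) then overlapped Atf5 (160.0 ± 16.9), and Ddit3, Ddit4 and Ppp1r15a lay close together at 104 ± 5.55, 103 ± 9.99 and 97.7 ± 5.44. In treated cultures Ddit4 (107 ± 1.14) stood above Ddit3 (90.8 ± 3.32) without overlap, and Chac1 (64.9 ± 3.71) above Trib3 (56.4 ± 2.52), the reverse of the Control order in both pairs.

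**Figure D1:**
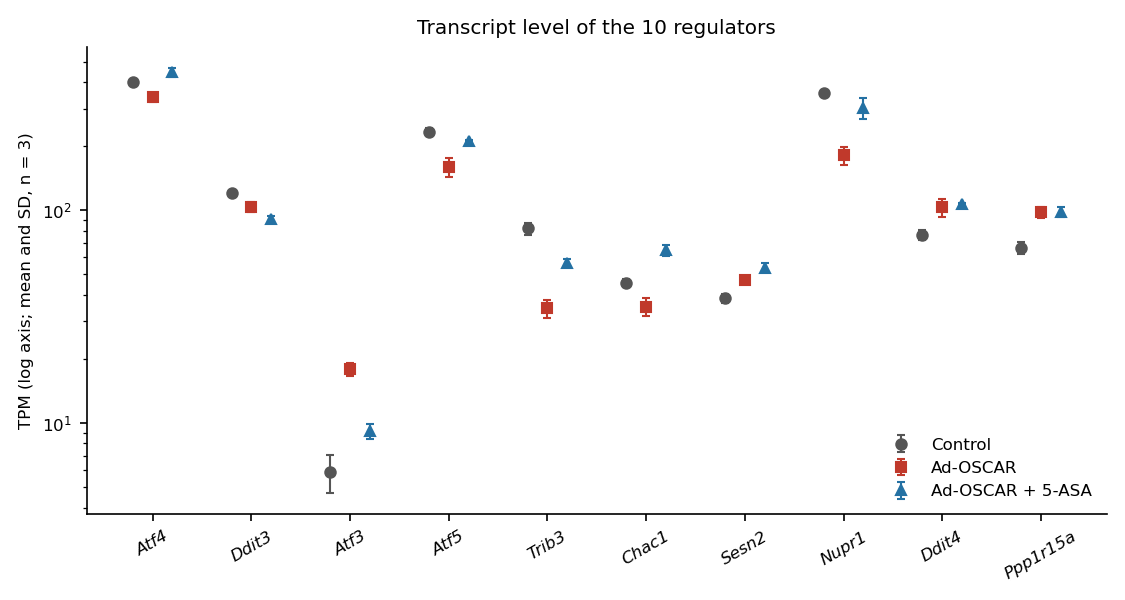
Transcript level (TPM) on a log axis for the 10 regulators, as mean and SD of 3 cultures in each group. Atf4 is highest and Atf3 lowest in every group, and Atf3 rises from 5.88 to 17.9 TPM with Ad-OSCAR and stands at 9.15 TPM with 5-ASA added.

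The first comparison, Ad-OSCAR against Control, asked what OSCAR overexpression did to these genes. All 10 passed the test, in both directions: Atf3, Sesn2, Ddit4 and Ppp1r15a rose, and Atf4, Ddit3, Atf5, Trib3, Chac1 and Nupr1 fell. The counts of 4 and 6 stand against a background of 32.7% of all genes tested called higher and 32.2% called lower, at an adjusted p below 0.05 in edgeR after adjustment over 15362 genes. Cultures of these groups did not overlap in any of the 10 genes, which held upward for 35.0% and downward for 34.0% of all genes. The median log2 fold change was -0.25 over the 10 genes and 0.02 over all genes. By the fold limit of the study (a log2 fold change beyond 1.5), which 4.57% of genes passed upward and 5.39% downward, Atf3 was the 1 regulator past it.

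The second comparison, 5-ASA-treated Ad-OSCAR cultures against untreated ones, asked what 5-ASA changed in cells that overexpress OSCAR. Of the 10 regulators 7 rose (Atf4, Atf5, Trib3, Chac1, Sesn2, Nupr1 and Ppp1r15a), Atf3 fell, and Ddit3 and Ddit4 did not pass the test. The background was 10.4% of genes called higher and 7.38% called lower. The cultures did not overlap in the 8 genes called, 7 upward and 1 downward, as in 17.8% and 16.1% of all genes. The median log2 fold change was 0.38 over the 10 genes and 0.00 over all genes. The study set a limit of 1.5-fold with an unadjusted p below 0.05 for 5-ASA, and its methods word it for the comparison with Ad-Control. Applied to treated against untreated Ad-OSCAR cultures, Trib3, Chac1 and Nupr1 were past it upward and Atf3 downward, against 2.27% and 1.87% of all genes. These counts rest on the same Ad-OSCAR cultures as those of the first comparison, so the opposite directions of the comparisons are not independent. Oscar itself was lower in the treated cultures, as given above, and its part in these differences was not tested.

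Treated cultures were also set against Control, which share no culture. Atf4, Atf3, Chac1, Sesn2, Ddit4 and Ppp1r15a were higher and Ddit3 and Trib3 lower, 6 and 2 genes against backgrounds of 31.4% and 31.8%. The same 8 genes did not overlap between cultures, against 33.4% of all genes upward and 33.2% downward. Atf5 and Nupr1 did not pass the test. Past the limit of the study for 5-ASA, here in the comparison its methods name, were Atf3 and Chac1 upward and 0 regulators downward, against 14.6% and 15.3% of all genes. The median log2 fold change of the regulators was 0.35, and that of all genes 0.01.

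**Figure D2:**
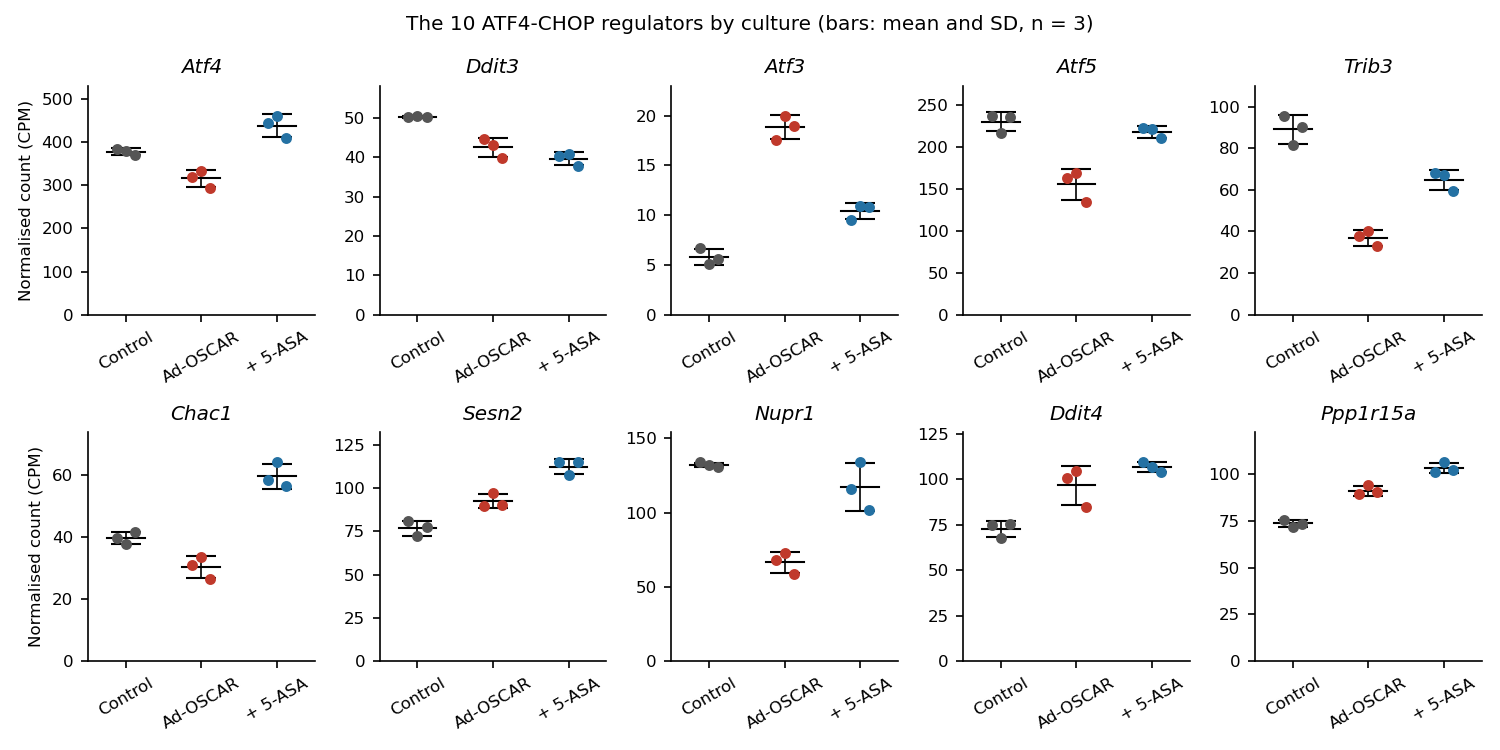
Normalised counts (CPM) of each regulator in the 9 cultures, 1 panel for each gene, with points for cultures and bars for the mean and SD of 3. In the Trib3 panel Control lies at 81.4 to 95.6 CPM, Ad-OSCAR at 32.8 to 40.1 and treated cultures at 59.4 to 68.1. In the Ddit3 panel both groups given Ad-OSCAR lie below Control.

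Atf4 (ENSMUSG00000042406.8), the factor after which the response is named, is a gene of chr15:80255184-80257541 on the plus strand of GRCm38. Its normalised count was 385, 379 and 369 CPM in Control cultures, 319, 334 and 294 in Ad-OSCAR cultures and 445, 461 and 408 in treated cultures. Every Ad-OSCAR culture was below every Control culture, and every treated culture above both. The fall with Ad-OSCAR was small (log2 fold change -0.26, SE 0.05, edgeR adjusted p = 0.00031), and the rise with 5-ASA was larger (0.47, SE 0.05, adjusted p = 5.23e-06), so that treated cultures ended above Control (0.21, SE 0.05, adjusted p = 0.00181).

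Atf5 (chr7:44812256-44816658, minus strand) encodes a close relative of ATF4 that is also controlled by translation. It stood at 237, 216 and 235 CPM in Control, at 163, 168 and 134 in Ad-OSCAR and at 223, 221 and 210.0 in treated cultures. Its Ad-OSCAR cultures lay apart below the others, while Control and treated cultures overlapped. Atf5 had a log2 fold change of -0.56 with Ad-OSCAR (SE 0.07, edgeR adjusted p = 6.96e-07) and of 0.49 with 5-ASA (SE 0.07, adjusted p = 4.68e-05). The remaining difference from Control was -0.07, with a 95% confidence interval of -0.22 to 0.07. On the other strand the gene overlaps Nup62 and Il4i1.

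Ddit3 (ENSMUSG00000025408.15) encodes CHOP, the partner of C/EBP factors that promotes cell death in lasting ER stress. It was at 50.3, 50.6 and 50.2 CPM in Control, at 44.6, 43.3 and 39.8 with Ad-OSCAR and at 40.5, 40.9 and 37.7 with 5-ASA added. Ad-OSCAR and treated cultures overlapped, and both lay below Control. Ddit3 fell with Ad-OSCAR (log2 fold change -0.24, SE 0.05, edgeR adjusted p = 0.000591). Its difference between treated and untreated Ad-OSCAR cultures was -0.10, with a 95% confidence interval of -0.21 to 0.01 (edgeR adjusted p = 0.219), and limma on log2(TPM + 0.5) called it lower (-0.19, adjusted p = 0.0271). Treated cultures differed from Control by -0.34 (SE 0.05, edgeR adjusted p = 2.05e-05). Atf4 and Ddit3 thus differed in the sign of the change from Control in treated cultures. The upper end of the Ddit3 interval, 0.01, lay below the lower end of the Atf4 interval for 5-ASA, 0.36.

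Ddit3 lies at chr10:127290774-127296288 and overlaps Mars on the other strand. Mars encodes methionyl-tRNA synthetase and rose with 5-ASA (0.47, SE 0.05, edgeR adjusted p = 3.61e-06). The library kit keeps the strand, but the strand setting of the counting was not stated in the sources used here, and the part of shared reads in the value of Ddit3 was not tested.

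Atf3 (chr1:191170296-191218039, minus strand), a stress factor that is itself induced by ATF4 and by many other signals, was the lowest of the regulators and showed their largest change in the first comparison. It was at 6.66, 5.10 and 5.55 CPM in Control, at 17.6, 19.97 and 18.9 in Ad-OSCAR and at 9.502, 10.9 and 10.8 in treated cultures. The groups did not overlap, and treated cultures lay between the others. Atf3 was 3.27-fold higher with Ad-OSCAR (log2 fold change 1.71, SE 0.10, edgeR adjusted p = 3.93e-11) and had the 548th largest rise of all genes tested. It was 0.554 of that level with 5-ASA (-0.85, SE 0.09, adjusted p = 2.57e-06), the 163rd largest fall, and remained above Control (0.86, SE 0.11, adjusted p = 1.54e-06). These values rest on 105 to 520 estimated counts per culture.

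Trib3 (chr2:152337422-152344032, minus strand) encodes a pseudokinase induced by ATF4 and CHOP that feeds back on ATF4. It was at 95.6, 81.4 and 90.1 CPM in Control, at 37.6, 40.1 and 32.8 in Ad-OSCAR and at 68.1, 67.0 and 59.4 in treated cultures. The groups did not overlap. The level with Ad-OSCAR was 0.414 of Control (log2 fold change -1.27, SE 0.07, edgeR adjusted p = 3.41e-11), the strongest fall among the 10. With 5-ASA it was 1.76-fold higher than with Ad-OSCAR alone (0.82, SE 0.07, adjusted p = 5.61e-07), yet lower than in Control (-0.46, SE 0.07, adjusted p = 2.07e-05).

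Nupr1 (chr7:126623249-126630861, minus strand) encodes a small stress-induced chromatin protein. Its values were 134, 132 and 131 CPM in Control, 67.9, 72.8 and 58.6 with Ad-OSCAR, and 116, 134 and 101 with 5-ASA. The treated cultures varied more than those of the other groups, and one of them reached the Control range. Nupr1 fell to 0.502 of Control (log2 fold change -0.99, SE 0.08, edgeR adjusted p = 5.82e-09) and rose 1.76-fold with 5-ASA (0.82, SE 0.08, adjusted p = 1.75e-06). Against Control the treated cultures differed by -0.18 (95% confidence interval -0.35 to -0.01, edgeR adjusted p = 0.0669). This difference passed the test in 6 of 18 alternative settings and ran from -0.28 to -0.08 over them. It was -0.28 without the second treated culture (edgeR adjusted p = 0.00296).

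Chac1 (chr2:119351229-119354381, plus strand) encodes an enzyme that breaks down glutathione. Its values were 39.8, 37.9 and 41.6 CPM in Control, 31.0, 33.7 and 26.7 with Ad-OSCAR and 58.4, 64.1 and 56.4 with 5-ASA. All treated cultures were above all Control cultures, as for Atf4. The fall with Ad-OSCAR was -0.39 (SE 0.07, edgeR adjusted p = 0.000179). The rise with 5-ASA was 1.96-fold (log2 fold change 0.97, SE 0.07, adjusted p = 4.94e-08), the largest among the regulators and the 153rd largest of all genes tested. Treated cultures were 1.5-fold above Control (0.59, SE 0.07, adjusted p = 9.38e-07).

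**Figure D3:**
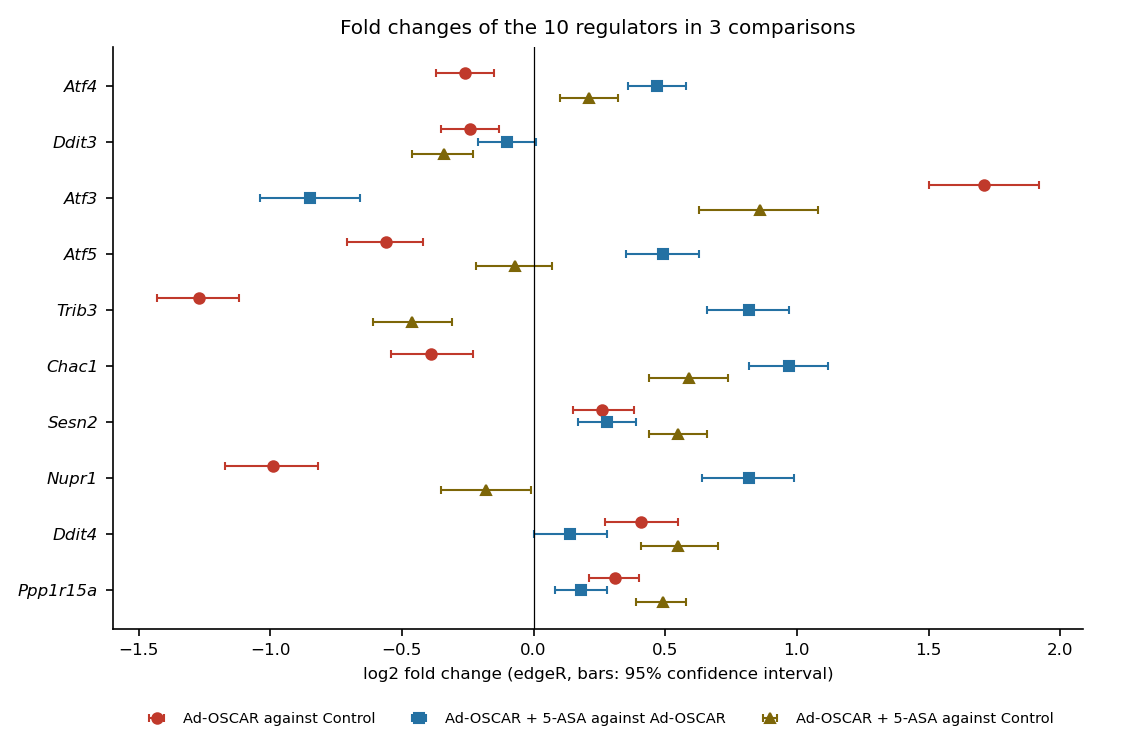
Log2 fold changes of the 10 regulators in each of the 3 comparisons, with bars for the 95% confidence interval from edgeR and a vertical line at 0. Atf3 lies at 1.71 with Ad-OSCAR and at -0.85 with 5-ASA, and Trib3 at -1.27 and 0.82. With 5-ASA the interval of Ddit3 includes 0, and that of Ddit4 begins just above 0.

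Sesn2, Ddit4 and Ppp1r15a shared an order of means, lowest in Control and highest in treated cultures. Sesn2 (chr4:132492032-132510501, minus strand) encodes a leucine sensor that restrains the growth kinase complex mTORC1, and it was at 81.0, 72.2 and 77.3 CPM in Control, at 89.7, 97.0 and 90.1 with Ad-OSCAR and at 115, 108 and 115 with 5-ASA. Its log2 fold change was 0.26 with Ad-OSCAR (SE 0.05, edgeR adjusted p = 0.000299) and a further 0.28 with 5-ASA (SE 0.05, adjusted p = 0.00084), without overlap of the groups. The second call was lost by limma on log2(TPM + 0.5) (0.19, adjusted p = 0.0515). It overlaps Gm12981 on its own strand.

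Ddit4 (chr10:59949669-59951834, minus strand), also called REDD1, restrains mTORC1 through the TSC complex. It was at 74.6, 67.8 and 75.6 CPM in Control, at 101, 104 and 84.5 with Ad-OSCAR and at 109, 107 and 104 with 5-ASA. The third Ad-OSCAR culture was below the others. Only the second, at 104.3 CPM, lay within the range of the treated cultures, whose lowest was at 103.8. The rise with Ad-OSCAR was 0.41 (SE 0.07, edgeR adjusted p = 3.33e-05). The difference with 5-ASA was 0.14, with a 95% confidence interval of 0.00 to 0.28 whose lower end lay just above 0. Its edgeR p was 0.0442 before adjustment and 0.151 after it. Without the third Ad-OSCAR culture the difference with 5-ASA was 0.05 (edgeR adjusted p = 0.604).

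Ppp1r15a (chr7:45522916-45526268, minus strand) encodes GADD34, which brings a phosphatase to eIF2-alpha and so ends the block on translation. It was at 75.6, 72.0 and 73.3 CPM in Control, at 89.1, 94.0 and 90.2 with Ad-OSCAR and at 101, 106 and 102 with 5-ASA, with no overlap. The rise with Ad-OSCAR was 0.31 (SE 0.05, edgeR adjusted p = 1.31e-05), and 0.55 by limma on log2(TPM + 0.5) (adjusted p = 3.48e-05). The rise with 5-ASA was 0.18 (SE 0.05, adjusted p = 0.00947), and it was lost when the first Ad-OSCAR culture was left out (0.16, adjusted p = 0.0609). It was not called on the TPM scale either, where it was 0.00 (limma adjusted p = 0.973) and where the effective length assigned to Ppp1r15a differed between cultures, at 1725 to 1957 bases in Control, 1509 to 1649 in Ad-OSCAR and 1597 to 1688 in treated cultures. Tulp2 overlaps the gene on the other strand.

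Cultures of a group also differed in these genes. Of the 10 genes, 7 were lowest in the third of the Ad-OSCAR cultures and 9 were highest in the second. In treated cultures 7 were lowest in the third, and in Control 7 were lowest in the second and 7 highest in the first. Without the third Ad-OSCAR culture the counts with 5-ASA were still 7 higher and 1 lower, with log2 fold changes of 0.88 for Chac1, 0.74 for Trib3, 0.73 for Nupr1 and 0.42 for Atf4.

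Likeness between patterns was measured as the root mean square difference of log2 CPM, centred on its mean, over the 9 cultures. Among the regulators Sesn2 and Ppp1r15a were closest (0.07), and Atf3 and Trib3 were farthest apart (1.22). Of 9316 genes with at least 10 CPM, the nearest to Atf4 were Mars (0.041), Trim35 (0.048) and Fhl2 (0.052). Mars, one of the tRNA synthetase genes, was at 109 ± 3.42, 90.9 ± 5.55 and 126 ± 3.89 CPM in Control, Ad-OSCAR and treated cultures. The nearest to Ddit3 were Mrpl12 (0.034), which encodes a mitochondrial ribosomal protein, Zc3h18 (0.039) and Psmc5 (0.041), which encodes a proteasome subunit. These are descriptions of 9 cultures in 3 groups, and many genes with the same order of group means lie close by this measure.

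Genes of the pathway around the regulators were described as 8 lists, by how many members passed the test and by their median. Over all genes tested, 32.7% were called higher and 32.2% lower with Ad-OSCAR and 10.4% and 7.38% with 5-ASA, with medians of 0.02 and 0.00. ATF4 targets in amino acid supply moved together: of 21 genes tested of 22 listed, 18 fell and 1 rose with Ad-OSCAR (median log2 fold change -0.88), and 21 rose with 5-ASA (median 0.89, range 0.13 to 1.79). Aldh1l2, a mitochondrial folate enzyme, went from 246 ± 11.9 CPM in Control to 32.3 ± 1.86 with Ad-OSCAR (-2.93, SE 0.07, edgeR adjusted p = 8.25e-17) and 67.2 ± 6.74 with 5-ASA. Pycr1, of proline synthesis, fell by 2.73 with Ad-OSCAR (SE 0.07, adjusted p = 3.71e-16). The transporter gene Slc7a3 rose by 1.79 with 5-ASA (SE 0.15, adjusted p = 2.8e-07), and Cth, of cysteine synthesis, by 1.48 (SE 0.09, adjusted p = 9.91e-09).

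In treated cultures the list lay on both sides of Control, with log2 fold changes from -1.87 to 1.18 (median 0.01). Of the 21 genes 8 were higher than in Control, 9 lower and 4 not called. Over all genes tested 31.4% were called higher and 31.8% lower in this comparison, also with a median of 0.01. The 1 gene that rose in the first comparison was Slc7a11, the cystine transporter gene, which was chosen after its values were seen. It rose with Ad-OSCAR (0.72, SE 0.09, edgeR adjusted p = 2.09e-06) and again with 5-ASA (0.46, SE 0.08, adjusted p = 0.000734). The 2 not called with Ad-OSCAR were Got1 (0.08, edgeR adjusted p = 0.244) and Slc3a2 (0.08, adjusted p = 0.211).

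All 12 tRNA synthetase genes fell with Ad-OSCAR (median -0.58) and rose with 5-ASA (median 0.45). Tars fell by 0.99 (SE 0.06, edgeR adjusted p = 1.44e-10) and Eprs by 0.85 (SE 0.06, adjusted p = 2.22e-10). Gars rose by 0.54 with 5-ASA (SE 0.05, adjusted p = 1.6e-06) and Yars by 0.53 (SE 0.05, adjusted p = 1.6e-06). The synthetases therefore shared the directions of Atf4, Atf5, Trib3, Chac1 and Nupr1 in both comparisons, which have the Ad-OSCAR cultures in common.

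Of 20 secreted and other ATF4 targets, 11 rose and 7 fell with Ad-OSCAR (median 0.25), the fall being near the 32.2% of all genes. With 5-ASA 10 rose and 2 fell (median 0.25), against 10.4% and 7.38%, and over the alternative settings these counts ran from 6 to 10 and from 1 to 4, with 1 lower when the first Ad-OSCAR or the second treated culture was left out. Ndrg1 fell by 1.69 with Ad-OSCAR (SE 0.05, edgeR adjusted p = 3.86e-15) and rose by 0.48 with 5-ASA (SE 0.05, adjusted p = 4.3e-06). Gdf15, a secreted stress signal, rose by 1.26 with Ad-OSCAR (SE 0.11, adjusted p = 1.97e-08) and differed by 0.19 with 5-ASA (adjusted p = 0.186). Fgf21, named after its values were seen, had the widest change of the list but a low level, at 1.66 ± 0.200 CPM in Control, 0.140 ± 0.093 with Ad-OSCAR and 0.803 ± 0.170 with 5-ASA.

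The chaperone arm of the ER stress response, driven by ATF6 and IRE1, had more genes called lower than higher in both comparisons. Of 25 genes, 19 fell and 3 rose with Ad-OSCAR (median -0.33), and with 5-ASA 11 fell and 3 rose (median -0.12). The 3 that rose came to 0 when the first or the third Ad-OSCAR culture or the first treated culture was left out, and to 1 without the third treated culture. Dnajc3, a co-chaperone gene, fell by 0.77 with Ad-OSCAR (SE 0.05, edgeR adjusted p = 5.37e-11). Derl3 was the strongest rise (1.35, SE 0.26, adjusted p = 0.000179), at 0.769 ± 0.285 CPM in Control and 1.96 ± 0.023 with Ad-OSCAR. Sdf2l1 fell by 0.52 with Ad-OSCAR (SE 0.07, adjusted p = 6.42e-06) and by a further 0.53 with 5-ASA (SE 0.08, adjusted p = 0.000111). Creld2 fell by 0.25 (SE 0.05, adjusted p = 0.000336) and by 0.38 (SE 0.05, adjusted p = 4.63e-05). In treated cultures 18 of the 25 were called below Control and 4 above it, against 31.8% and 31.4% of all genes.

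Of 18 genes for eIF2-alpha, its kinases and phosphatases and the control of translation, 8 were higher and 7 lower with Ad-OSCAR. With 5-ASA 2 were higher and 3 lower. The shares of all genes were 32.7% and 32.2%, then 10.4% and 7.38%, and a difference of the list from them was not tested. The 2 higher with 5-ASA came to 1 without the second or the third Ad-OSCAR culture or the first or second treated culture. Eif4ebp1, an ATF4 target that restrains translation, fell by 0.86 (SE 0.07, edgeR adjusted p = 7.36e-09) and rose by 0.60 with 5-ASA (SE 0.07, adjusted p = 1.48e-05). Ppp1r15b, the constant partner of the eIF2-alpha phosphatase, rose by 0.71 with Ad-OSCAR (SE 0.04, adjusted p = 5.39e-11). Impact, an inhibitor of the amino acid sensing kinase GCN2, rose by 0.50 (SE 0.05, adjusted p = 1.81e-07) and fell by 0.35 with 5-ASA (SE 0.05, adjusted p = 0.000133).

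Among the bZIP factors that can pair with ATF4 or CHOP, 13 of 21 rose and 4 fell with Ad-OSCAR (median 0.38), and 4 rose and 2 fell with 5-ASA (median 0.00). The rise with Ad-OSCAR stands against 32.7% of all genes. The counts with 5-ASA stand against 10.4% and 7.38%, and a difference from these shares was not tested. Those counts ran from 1 to 5 and from 2 to 4 over the alternative settings, with 4 lower without the third Ad-OSCAR culture. Crem rose by 1.41 (SE 0.09, edgeR adjusted p = 7.32e-11). Cebpa rose by 1.23 (SE 0.10, adjusted p = 4.25e-09) and fell by 0.40 with 5-ASA (SE 0.09, adjusted p = 0.00386). Jdp2 had the directions of Atf4, a fall of 1.10 with Ad-OSCAR (SE 0.07, adjusted p = 2.58e-10) and a rise of 0.59 with 5-ASA (SE 0.07, adjusted p = 2.15e-05). Jdp2 is also a member of the list of other ATF4 targets.

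Sesn2 and Ddit4 also answer to p53, and targets of p53 moved with Ad-OSCAR in the direction of these genes: 10 of 12 rose and 1 fell (median 0.94). With 5-ASA 10 fell and 2 rose (median -0.27), while Sesn2 rose. The 2 that rose came to 1 without the third Control culture, the first or the third Ad-OSCAR culture, or the first or second treated culture. Cdkn1a, the cell cycle inhibitor, rose by 1.52 (SE 0.04, edgeR adjusted p = 1.53e-15) and fell by 0.44 with 5-ASA (SE 0.04, adjusted p = 1.09e-06). Trp53inp1 rose by 1.37 with Ad-OSCAR (SE 0.07, adjusted p = 3.42e-12). Gadd45a rose in both comparisons (0.71, SE 0.09, adjusted p = 1.14e-06, and 0.80, SE 0.08, adjusted p = 9.35e-07). The part of p53 in the levels of Sesn2 and Ddit4 was not tested.

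Of 18 regulators of mTORC1, the complex that Sesn2 and Ddit4 restrain, 10 rose and 4 fell with Ad-OSCAR (median 0.21), and 1 rose and 5 fell with 5-ASA (median -0.08). The 4 that fell with Ad-OSCAR were fewer than 32.2% would give and came to 2 without the third Ad-OSCAR culture, and the 5 that fell with 5-ASA, against 7.38% of all genes, came to 3 without the first treated culture. Deptor, an mTOR inhibitor, fell by 2.77 (SE 0.07, edgeR adjusted p = 1.06e-16) and rose by 0.36 with 5-ASA (SE 0.08, adjusted p = 0.00297). Rragd, a GTPase that places mTORC1 on lysosomes, rose by 2.10 (SE 0.17, adjusted p = 4.29e-09) and fell by 0.92 with 5-ASA (SE 0.14, adjusted p = 0.000179). Ddit4l, a relative of Ddit4, fell by 0.38 with 5-ASA (SE 0.07, adjusted p = 0.000771), where Ddit4 did not pass the test.

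**Figure D4:**
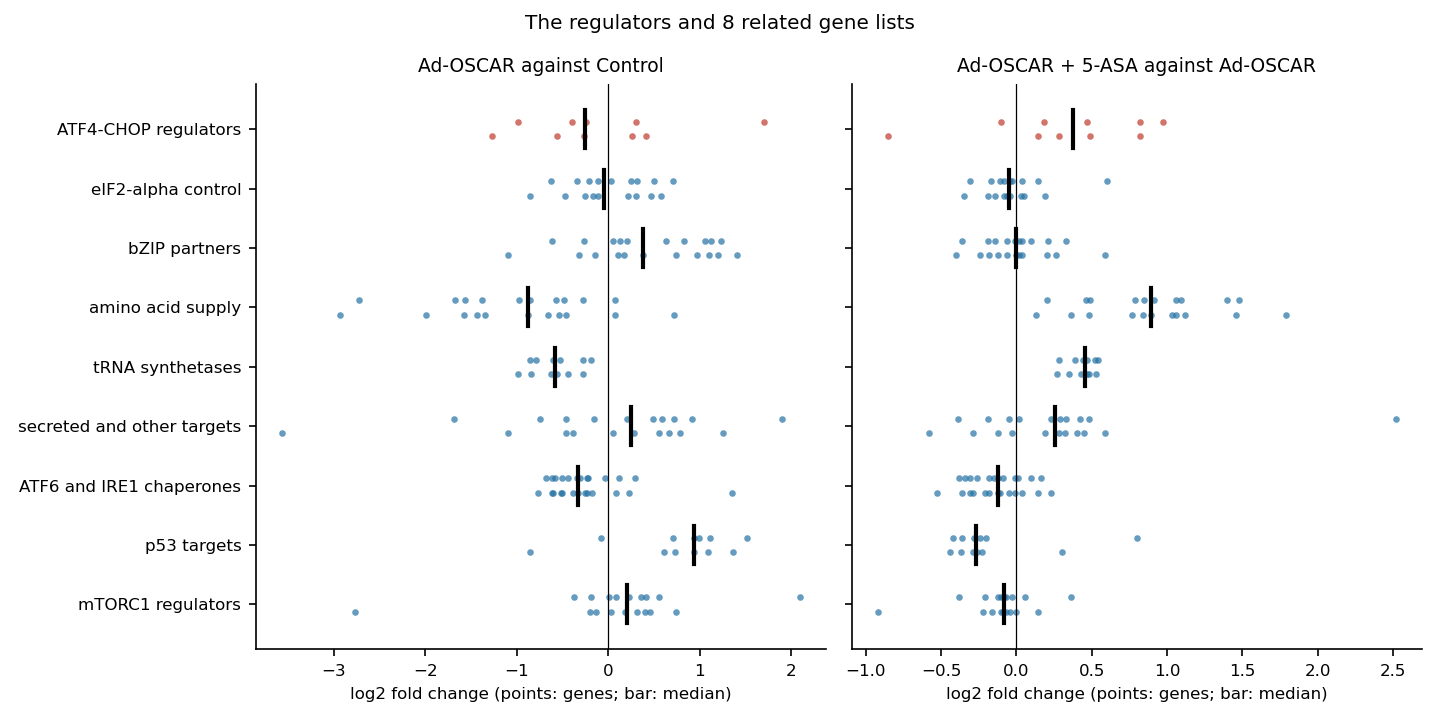
Log2 fold changes of single genes in the 10 regulators and the 8 related lists, with Ad-OSCAR against Control on the left and 5-ASA-treated against untreated Ad-OSCAR cultures on the right. Each point is a gene and each black bar the median of its list. The bars of the amino acid supply list stand at -0.88 and 0.89, those of the chaperone list at -0.33 and -0.12 and those of the p53 targets at 0.94 and -0.27.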

How the data were processed

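The authors aligned reads of stranded mRNA libraries from 9 cultures to GRCm38 and counted them per gene, with STAR 2.7.1a and RSEM 1.3.1 according to the submitters' processing notes; the study's own text also names another RSEM version. The authors deposited estimated counts, which RSEM shares out among genes and which need not be whole, together with TPM, scaled to each library and to gene length, and the effective length in bases. The strand setting was not given in the sources used here. Of 55471 listed genes 55144 matched GENCODE M21, which gave symbols and positions.

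Estimated counts were rounded, normalised by TMM (CPM in the text are TMM-scaled) and tested in R 4.3.3 with edgeR 4.0.16 (filterByExpr by group, glmQLFit and glmQLFTest, 1 fit of 9 cultures with group as the only factor, 6 residual degrees of freedom). The biological coefficient of variation was 5.11%. SEs were obtained from the log2 fold change and F. An adjusted p below 0.05, by Benjamini-Hochberg over 15362 genes, made a call, and "rose" and "fell" are used of calls. Folds are against the group named second. Saa3 was the gene with the highest TPM in each culture, at 3.12% to 15.2% of the total, so TPM were also compared with culture medians set equal.

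The 10 regulators and all gene lists were chosen with earlier results of these data known. All regulators are named. A further leukocyte marker is not reported here. Of each related list, the genes named are those with the widest change in either of the first comparisons, 2 for each, among called genes with a mean of at least 1 CPM. Alternatives were DESeq2 1.42.0, limma 3.58.1 on log2(TPM + 0.5), RLE scaling, other filters, 2-group fits, a block for replicate number, and leaving out each culture. Python scripts used Python 3.11.15, pandas 2.3.3 and matplotlib 3.10.9.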

Additional observations from a re-analysis of the deposited data

How the results depend on the processing

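Of 540 values of the regulators under alternative settings, 529 kept their direction and their side of the threshold, 4 lost the call, 7 gained one and 0 turned direction. With 5-ASA against Ad-OSCAR, 2 regulators rather than 1 were lower by limma on log2(TPM + 0.5), the second being Ddit3 (log2 fold change -0.19, adjusted p = 0.0271). In that fit Sesn2 (0.19, adjusted p = 0.0515) and Ppp1r15a (0.00, adjusted p = 0.973) were not called, nor was Ppp1r15a with culture medians set equal (0.09, adjusted p = 0.459), a setting added after the data were seen. On the TPM scale the median of all genes was -0.09 in this comparison. The remaining gains were the difference of Nupr1 between treated cultures and Control, called in 6 settings. Over all settings with 5-ASA, Chac1 ranged from 0.87 to 1.05, Trib3 from 0.70 to 0.88, Nupr1 from 0.71 to 0.91 and Atf3 from -0.93 to -0.79.

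Cultures with the same replicate number did not deviate together (correlations -0.0724 to 0.0402, mean -0.021). Each deviation is from a mean of 3 cultures, so this does not settle whether the numbers mark shared preparations. In a fit with a replicate block the regulators called were 4 higher and 6 lower, 7 higher and 1 lower, and 6 higher and 3 lower in the comparisons in the order given, the added call being Nupr1 (adjusted p = 0.0183).

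Of 576 counts over the related lists 36 moved by more than 1.5 times, 34 of them with 5-ASA, and the cause was not tested. Over the settings the chaperone genes called higher with 5-ASA numbered 0 to 3, the p53 targets called higher 1 to 2, the eIF2-alpha genes called higher 1 to 2, the bZIP factors called higher 1 to 5 and lower 2 to 4, the other ATF4 targets called higher 6 to 10 and lower 1 to 4, and the mTORC1 regulators called higher 0 to 1 and lower 3 to 7. With Ad-OSCAR the mTORC1 regulators called lower fell from 4 to 2 without the third Ad-OSCAR culture, and the p53 targets called lower went from 1 to 2 with TPM medians set equal. The counts of amino acid supply and tRNA synthetase genes moved in none. With 3 cultures a group, small differences such as those of Ddit3 and Ddit4 with 5-ASA can be given only as intervals.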
